A study of Mus musculus with 12 samples.

Results

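The clock output factors are transcription factors that the circadian clock drives in liver and that pass its rhythm on to other genes. The members were chosen by name: the PAR bZIP activators Dbp, Tef and Hlf, the bZIP repressor Nfil3, the nuclear receptor Rora and the basic helix-loop-helix repressors Bhlhe40 and Bhlhe41. Of these 7 names, 6 were among the 11587 genes of the deposited table, and Bhlhe41 was not analysed here because no row of the table carried its name. Livers came from 3 Maf1 KO mice (numbered 1, 2 and 4) and 3 wild-type mice (numbered 1, 2 and 3), all of strain C57BL/6, and each liver gave a library of ribosome-protected footprints and a library of total RNA, 12 libraries in 4 groups. The knockout removes Maf1, a repressor of RNA polymerase III, from the whole body and not from liver alone. Ages were 12 to 14 weeks by the labels and all mice were killed at 9 PM, shortly after the lights went off. The labels describe the mice as refed, whereas the methods of the study describe free feeding, so the feeding state is uncertain. Every liver extract, of both genotypes, held an internal standard from cultured fly cells (Drosophila S2). No row of the table carried Maf1, and its level could not serve as a check of the genotypes.

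In the core clock, CLOCK and BMAL1 (the product of Arntl) activate genes through E-box elements, and their PER and CRY products shut this activity off again in a daily cycle. DBP, TEF and HLF bind the D-box element and activate genes of detoxification and lipid metabolism, and NFIL3 represses through the same element. RORA activates through an element that the receptors REV-ERBα and REV-ERBβ (Nr1d1 and Nr1d2) occupy as repressors, while BHLHE40 and BHLHE41 compete for E-boxes. Dbp mRNA cycles with a large amplitude in mouse liver, being high late in the light phase and falling during the night, and Nfil3 mRNA cycles in the opposite phase.

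In the assembly NCBIM37, Dbp lies on chromosome 7 from 52960458 to 52965525 and was represented by 1 transcript. Tef lies on chromosome 15 from 81632851 to 81657291 (3 transcripts), Hlf on chromosome 11 from 90197849 to 90252231 (4 transcripts), Nfil3 on chromosome 13 from 53062578 to 53076442 (2 transcripts), Rora on chromosome 9 from 68501593 to 69236053 (4 transcripts) and Bhlhe40 on chromosome 6 from 108610623 to 108616919 (1 transcript). Scores were counted over coding sequences, which run from 885 bases in Hlf to 1569 bases in Rora.

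Promoters are shown because the members are joined by the elements they bind and are driven through. RefSeq (GRCm38.p6) gave windows for 6 of the 7 names, with 2 starts for Tef and none for Bhlhe40. In the 250 bases before each start, both strands were searched for the E-box CACGTG and its variant CACGTT, the D-boxes TTATGTAA and TTACGTAA, and the ROR elements TAGGTCA and TGGGTCA, none of which overlapped another match in these windows. Matches are in capitals, each strand is that of the gene, and the stretch of Dbp, the member that stood apart in the measurements, ends at its start and held no match.
Tef, first start, chr15:81802516-81802581, plus strand: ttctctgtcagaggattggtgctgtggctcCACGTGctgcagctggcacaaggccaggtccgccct
Tef, second start, chr15:81811246-81811311, plus strand: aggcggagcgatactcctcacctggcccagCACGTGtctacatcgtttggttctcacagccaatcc
Nfil3, chr13:52981040-52981081, minus strand: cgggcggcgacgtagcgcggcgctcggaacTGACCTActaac
Dbp, chr7:45705127-45705246, plus strand: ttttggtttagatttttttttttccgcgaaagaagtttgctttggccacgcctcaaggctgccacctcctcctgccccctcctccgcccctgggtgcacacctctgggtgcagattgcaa

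The E-box stood 127 and 138 bases before the starts of Tef, and a further E-box stood 153 bases before the start of Bhlhe41. The capitals in Nfil3 are the ROR element TAGGTCA on the opposite strand, 12 bases before the start. The windows of Dbp, Hlf and Rora held none of these letters. Of all 32851 promoter windows, 6.02% held CACGTG, 3.85% CACGTT, 0.82% TTATGTAA, 0.11% TTACGTAA, 2.23% TAGGTCA and 3.24% TGGGTCA. A match is a description of the letters in the window and says nothing of binding in these livers.

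Library-wide offsets touched every comparison. The median gene score was 8.75 to 9.34 in Maf1 KO and 8.83 to 9.04 in wild-type total RNA libraries, and 7.17 to 7.57 in Maf1 KO and 7.37 to 8.02 in wild-type footprint libraries. The footprint library of Maf1 KO 1 was the lowest and that of wild-type 3 the highest, so values are also given with each library centred on its median over genes. Using the fly standard, the study reported generally lower ribosome occupancy in Maf1 KO livers. Centring would remove such a shift along with technical offsets, and the 2 were not separated here. Markers of hepatocytes were abundant in all livers, and their summed total RNA (log2, library median subtracted) was 12.46 to 12.94 in the Maf1 KO group and 12.09 to 12.89 in the wild-type group. Summed markers of Kupffer cells, the resident macrophages, were 5.68 to 6.16 in the Maf1 KO group and 5.19 to 5.45 in the wild-type group, with 11 of 11 measured markers higher in Maf1 KO and the marker Marco 2.21 higher on the log2 scale (limma, adjusted p = 4.001e-11, a call lost with libraries centred, where adjusted p = 0.195). Summed endothelial markers were 3.98 to 4.29 in Maf1 KO against 3.89 to 3.96 in wild-type livers, and summed stellate cell markers were 3.80 to 4.19 against 3.68 to 3.88. Of 5 cholangiocyte markers Krt19, Krt7 and Epcam were not in the table, and of 6 lymphocyte markers only Ptprc was. The part of these cell types in the results for the members was not tested, and in bulk liver fewer cells of a type and less RNA per cell cannot be told apart.

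Dbp had the largest genotype difference of the members in total RNA and in footprints, with a lower mean in Maf1 KO livers, but no member passed the genotype test in any measure. In total RNA the Dbp score was 8.13, 7.26 and 9.06 in Maf1 KO livers 1, 2 and 4, against 8.95, 8.96 and 9.41 in wild-type livers 1, 2 and 3. Maf1 KO 1 and 2 lay below every wild-type liver, whereas Maf1 KO 4 lay among them. Maf1 KO livers averaged 8.15 ± 0.90 and wild-type livers 9.11 ± 0.26 (SD, n = 3 each), a log2 difference of -0.96 (limma SE 0.28), or 0.516 times the wild-type level. The unadjusted p from limma was 6.15e-04 and the adjusted p over all genes was 0.146. With libraries centred the difference was -0.97 (SE 0.39), with an unadjusted p of 0.031 and an adjusted p of 0.557 (limma).

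The difference in Dbp depended on single livers. Without Maf1 KO 4 it was -1.41 and passed (limma, adjusted p = 0.014), and without Maf1 KO 2 it was -0.51 and did not (adjusted p = 1). On the deposited scale limma took its SE from the spread shared by all genes, which was smaller than the spread of Dbp itself: after centring, the SD of Dbp within genotypes was 0.706, above 99.0% of all genes, whose median SD was 0.196. The Dbp level relative to Nfil3, its opponent at the D-box, was free of library offsets and is given for each liver next. The total RNA score of Dbp minus that of Nfil3 was -2.16, -2.84 and -0.71 in Maf1 KO livers 1, 2 and 4, against -1.18, -1.46 and -0.60 in wild-type livers 1, 2 and 3. Maf1 KO 1 and 2 were the lowest and Maf1 KO 4 lay within the wild-type range. These values reuse the Dbp scores given above and are not a second observation.

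Tef and Hlf, the other PAR bZIP activators, had smaller differences than Dbp, and neither passed. Tef scored 11.06, 10.47 and 10.81 in Maf1 KO livers 1, 2 and 4, against 10.90, 11.17 and 11.05 in wild-type livers 1, 2 and 3. Hlf scored 8.71, 8.40 and 8.97 in Maf1 KO livers 1, 2 and 4, against 8.62, 9.26 and 8.87 in wild-type livers 1, 2 and 3. For both genes the genotypes overlapped, and Maf1 KO 2, whose total RNA library had the lowest median, was the lowest liver. With libraries centred Maf1 KO 1 was the lowest for both (-0.64 for Hlf, beside -0.36 in Maf1 KO 2), though for Tef Maf1 KO 1 and 2 were nearly level (1.712 and 1.715). The total RNA difference was -0.26 for Tef (SE 0.26) and -0.23 for Hlf (SE 0.28), each with an adjusted p of 1 (limma). Leaving out single livers moved the difference between -0.40 and -0.11 for Tef and between -0.38 and -0.054 for Hlf. Tef exceeded Hlf in every liver, by 2.35, 2.07 and 1.84 in Maf1 KO livers 1, 2 and 4 and by 2.28, 1.91 and 2.18 in wild-type livers 1, 2 and 3.

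Nfil3, the repressor of D-box genes, scored 10.29, 10.10 and 9.77 in Maf1 KO livers 1, 2 and 4, against 10.13, 10.41 and 10.00 in wild-type livers 1, 2 and 3. Rora, the activator at ROR elements, scored 10.87, 10.35 and 10.39 in Maf1 KO livers, beside 10.45, 10.71 and 10.58 in the wild-type group. Bhlhe40, the E-box repressor, scored 12.10, 10.95 and 11.81 in Maf1 KO livers, beside 11.81, 11.89 and 11.10 in the wild-type group. The genotypes overlapped in all 3 genes. Differences were -0.13 for Nfil3 (SE 0.26), -0.038 for Rora (SE 0.26) and 0.021 for Bhlhe40 (SE 0.25), with adjusted p = 1 each (limma). The sign turned for all 3 when single livers were left out (for Nfil3 without Maf1 KO 4, at 0.011), so no direction is given for them.

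**Figure D1:**
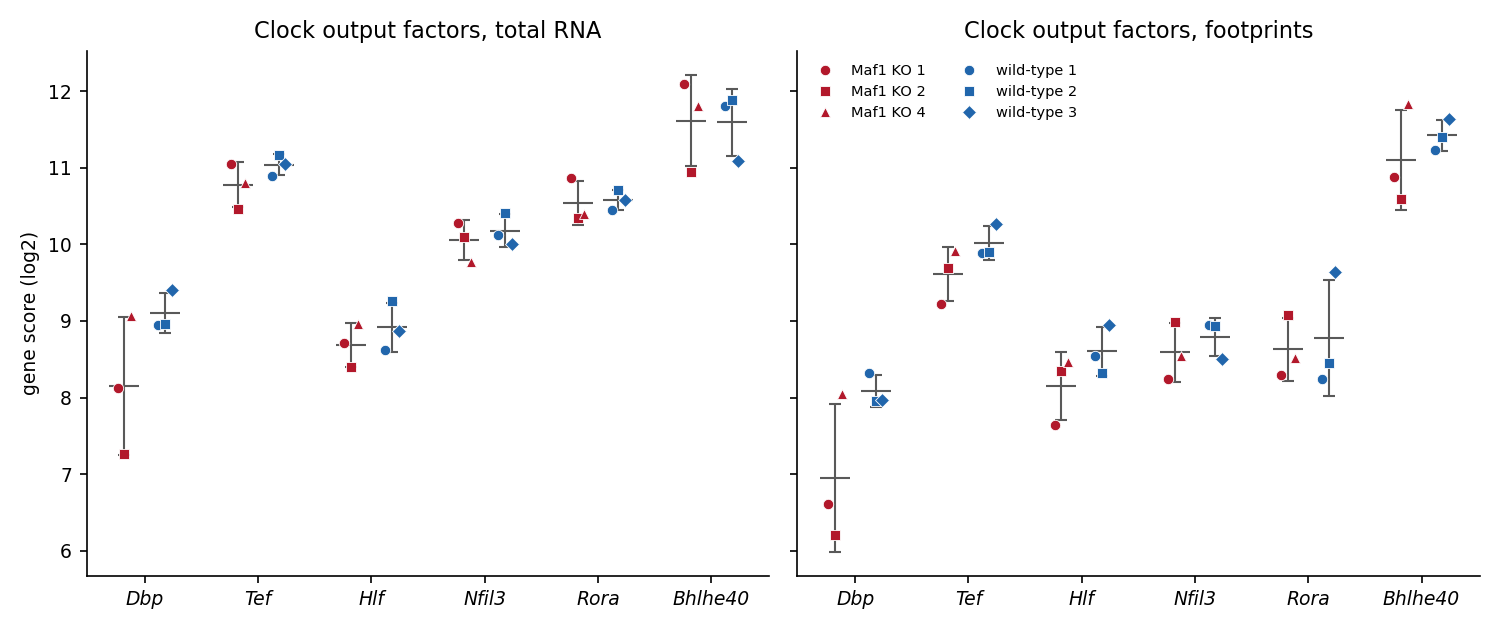
Gene scores (log2, vertical axis) of the 6 measured clock output factors in total RNA (left) and footprints (right), with Maf1 KO livers in red left of wild-type livers in blue. Points are livers, horizontal bars are means and whiskers are SD (n = 3 each); Dbp is low in Maf1 KO 1 and 2 (8.13 and 7.26 in total RNA) and not in Maf1 KO 4 (9.06), and the genotypes overlap for all genes.

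Calls among the members are given beside the share of all genes called by the same rule. In total RNA 0 of 6 members passed an adjusted p of 0.05, where limma called 0.276% of all genes, and 1 of 6 (Dbp) had an unadjusted p below 0.05, where 3.61% of all genes did. With libraries centred, 1 of 6 (Dbp) had an unadjusted p below 0.05, where 8.48% of genes did, and 0 of 6 had genotypes that did not overlap, where 13.9% of genes did. The median difference of the members was -0.18 in total RNA, beside 0.002 over all genes, and after centring 5 of 6 members lay below 0, as did 6187 of 11587 genes.

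In footprints, which reflect the amount of a message as well as the ribosomes on it, Dbp again had the largest difference. Its score was 6.61, 6.21 and 8.04 in Maf1 KO livers 1, 2 and 4, against 8.32, 7.96 and 7.96 in wild-type livers 1, 2 and 3. As in total RNA, Maf1 KO 1 and 2 lay below every wild-type liver and Maf1 KO 4 lay among them. Maf1 KO livers averaged 6.95 ± 0.97 and wild-type livers 8.08 ± 0.21 (SD, n = 3 each), a difference of -1.13 (SE 0.35) with an unadjusted p of 0.00132 and an adjusted p of 0.566 (limma). With libraries centred the difference was -0.94 (SE 0.43, limma unadjusted p = 0.0558 and adjusted p = 1). Without wild-type 3 it was -1.19 and passed (limma, adjusted p = 0.0359), whereas it was -1.68 without Maf1 KO 4 (adjusted p = 0.052) and -0.76 without Maf1 KO 2 (adjusted p = 0.998).

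For Tef the footprint score was 9.23, 9.70 and 9.91 in Maf1 KO livers 1, 2 and 4, against 9.88, 9.91 and 10.27 in wild-type livers 1, 2 and 3. For Hlf it was 7.64, 8.35 and 8.46 in Maf1 KO livers, beside 8.55, 8.32 and 8.95 in the wild-type group. Maf1 KO 1, whose whole footprint library was low, was the lowest liver for both. Differences were -0.41 for Tef (SE 0.35) and -0.46 for Hlf (SE 0.35), and they were -0.22 and -0.27 with libraries centred. The footprint scores of Nfil3 were 8.24, 8.99 and 8.54 in Maf1 KO livers 1, 2 and 4 and 8.94, 8.93 and 8.50 in wild-type livers 1, 2 and 3, those of Rora 8.29, 9.08 and 8.52 in Maf1 KO livers and 8.24, 8.45 and 9.64 in the wild-type group, and those of Bhlhe40 10.88, 10.59 and 11.84 in Maf1 KO livers and 11.24, 11.40 and 11.64 in the wild-type group. All 3 overlapped between genotypes, with differences of -0.20, -0.15 and -0.32 (SE 0.35, 0.35 and 0.37) that were -0.013, 0.040 and -0.13 with libraries centred. The sign for Rora turned also without Maf1 KO 1 or without wild-type 3. No member passed in footprints (0 of 6, beside 0.0863% of all genes by limma), and 1 of 6 (Dbp) had an unadjusted p below 0.05 (2.49% of all genes). After centring 0 of 6 had an unadjusted p below 0.05 (4% of all genes), and 0 of 6 had genotypes that did not overlap (9.1% of all genes).

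Translation efficiency was the total RNA score of a liver subtracted from its footprint score, and no member passed the genotype test in it. Differences lay between -0.34 (Bhlhe40, SE 0.54) and -0.074 (Nfil3, SE 0.53), beside a median of -0.19 over all genes, and with libraries centred they lay between -0.13 (Bhlhe40) and 0.14 (Nfil3). For Dbp the difference was -0.17 (SE 0.53) as deposited and 0.036 (SE 0.37) after centring. Dbp was at 0.516 times the wild-type level in total RNA and at 0.457 times in footprints, and the gap between these folds is within the SE of the translation efficiency difference. By limma 0 of 6 members passed, where 0.00863% of all genes did, 0 of 6 had an unadjusted p below 0.05, where 0.734% did, and 0 of 6 had genotypes that did not overlap after centring, where 7.35% of all genes did.

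**Figure D2:**
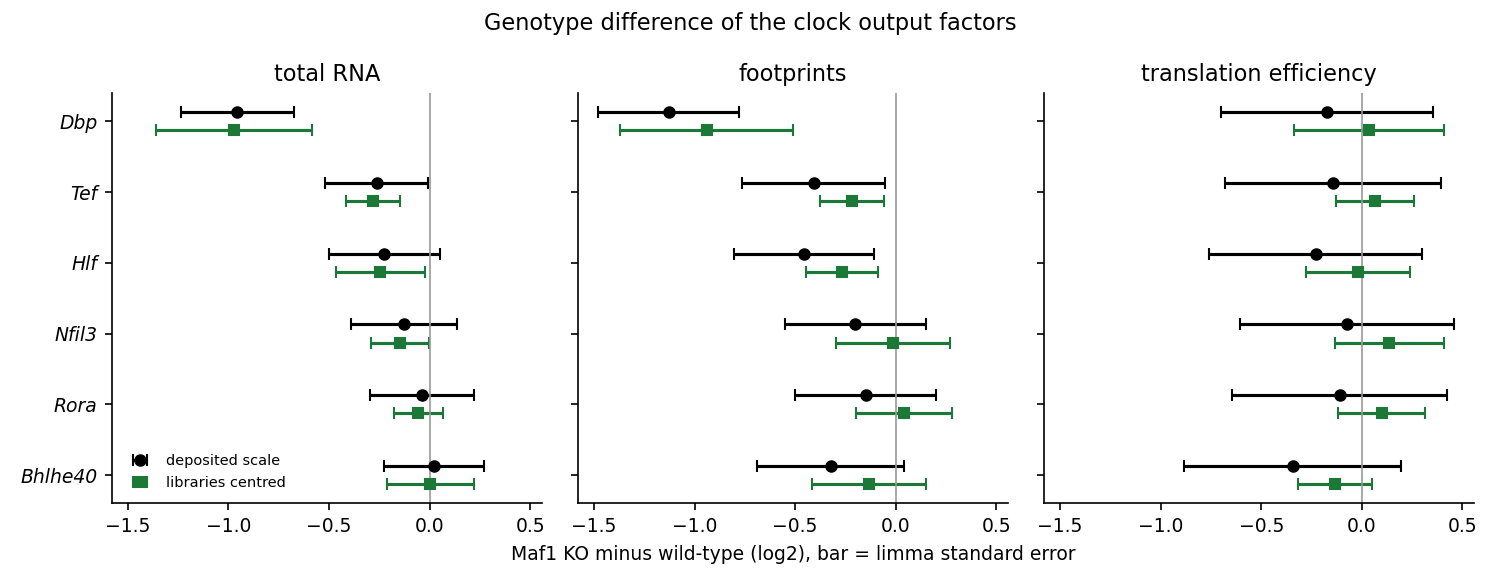
Difference between Maf1 KO and wild-type livers (log2, horizontal axis, Maf1 KO minus wild-type) of the 6 genes in total RNA, footprints and translation efficiency. Circles are deposited scores, squares are scores with libraries centred, and bars are limma standard errors; Dbp lies at -0.96 and -1.13 in total RNA and footprints and near 0 in translation efficiency after centring.

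The members differed among themselves in footprint score relative to total RNA score. Over all genes footprints fell more steeply with coding length (slope on log2 length -0.9) than total RNA did (-0.478), so translation efficiency falls with length. Hlf has the shortest coding sequence of the measured members (885 bases) and Rora the longest (1569 bases). The part of length in the values below was not tested. Each translation efficiency was set against the median over genes in the same liver and averaged over the 6 livers. Bhlhe40 was above the median gene in every liver, by 0.80, 0.69 and 1.16 in Maf1 KO livers 1, 2 and 4 and by 0.91, 0.95 and 1.18 in wild-type livers 1, 2 and 3. Its mean of 0.95 (limma SE 0.09, adjusted p = 5.7e-06) is 1.93 times the value of the median gene, without correction for length, and exceeds 87.8% of genes. Hlf was also above the median in every liver, by 0.95, 1.00 and 0.62 in Maf1 KO livers and by 1.42, 0.50 and 0.72 in wild-type livers. The mean for Hlf was 0.87 (SE 0.13, adjusted p = 1.17e-04, limma), higher than 85.6% of genes. Rora lay below the median in every liver, at -0.57, -0.23 and -0.75 in Maf1 KO livers and -0.72, -0.83 and -0.30 in wild-type livers. Its mean was -0.56 (SE 0.11, adjusted p = 6.88e-04, limma), and 29.0% of genes lay lower. These values depend on which genes set the median. With low genes removed they were 0.78 for Bhlhe40, 0.70 for Hlf and -0.73 for Rora, and 3 members passed as before.

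Dbp, Tef and Nfil3 did not pass in this comparison. Tef averaged 0.20 (SE 0.10, adjusted p = 0.0884, limma) and Nfil3 averaged -0.14 (SE 0.14, adjusted p = 0.379). Dbp averaged 0.18 (SE 0.19, adjusted p = 0.40) and was the most scattered, at 0.49, -0.014 and 0.11 in Maf1 KO livers 1, 2 and 4 and 0.86, 0.44 and -0.81 in wild-type livers 1, 2 and 3. Wild-type 3 was the lowest liver for Dbp, Tef and Nfil3, and without it Dbp averaged 0.42 and Tef 0.28 and both passed (limma, adjusted p = 0.0126 and 0.0233). The test called 3 of 6 members, where it called 74.4% of all genes, so that being called separates none of these genes from the bulk of the transcriptome.

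**Figure D3:**
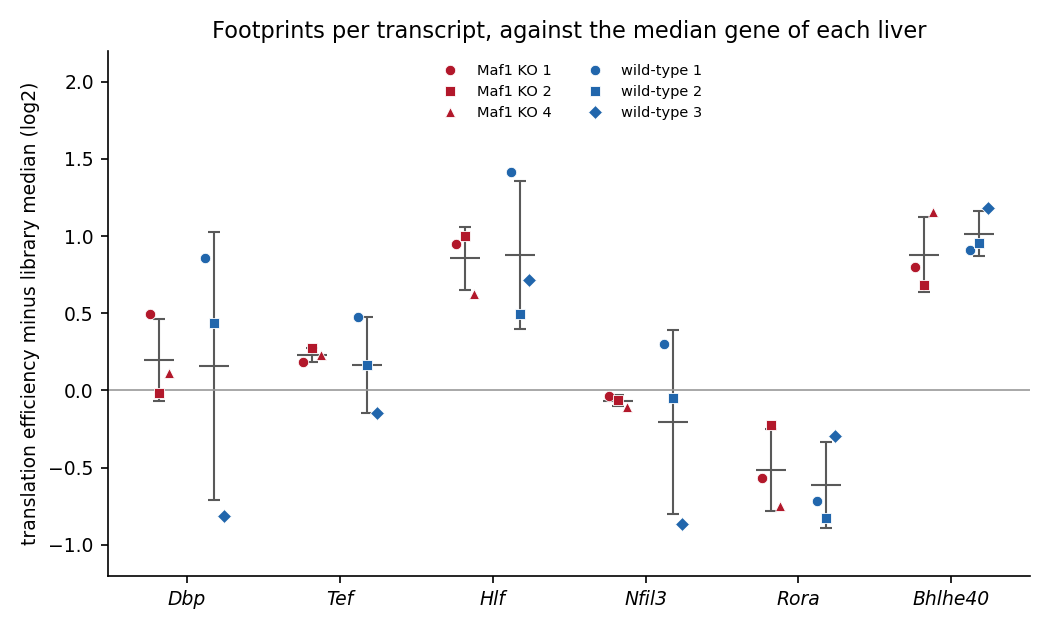
Translation efficiency of each clock output factor minus the median over genes of the same liver (log2, vertical axis), with Maf1 KO livers in red left of wild-type livers in blue, means as bars and SD as whiskers (n = 3 each). All 6 livers lie above 0 for Hlf and Bhlhe40 and below 0 for Rora, and wild-type 3 is the lowest liver for Dbp, Tef and Nfil3.

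Levels of the members were ordered by total RNA score per kilobase of coding sequence. The mean over 6 livers was 11.31 for Bhlhe40, 11.06 for Tef, 9.91 for Rora, 9.65 for Nfil3, 8.98 for Hlf and 8.66 for Dbp. Tef exceeded Rora, Rora exceeded Nfil3, and Nfil3 exceeded Hlf in 6 of 6 livers, by 1.15, 0.26 and 0.67 (SD over livers 0.16, 0.17 and 0.34). Each of these 3 neighbour pairs had p = 0.03125 in an exact two-sided sign-flip permutation test, the smallest that 6 livers allow, and an adjusted p of 0.0521 over the 5 pairs, so none passed. Bhlhe40 exceeded Tef in 5 of 6 livers by 0.25 (exact permutation adjusted p = 0.195), and Hlf exceeded Dbp in 4 of 6 by 0.31 (exact permutation adjusted p = 0.281), so that the order within these pairs is not resolved.

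Dividing by length may not be right for these scores, since they fell with coding length over all genes (slope on log2 length -0.478 in total RNA) and may have been divided by it before deposition. Without the division the order of the means was the same, and all pairs but Hlf and Dbp passed (4 of 5 pairs, exact permutation adjusted p = 0.0391 each). Taking for each gene its highest transcript put Tef at 11.32 and Bhlhe40 at 11.31, and 0 of 5 pairs passed. Tef is the member whose transcripts differed most: their mean total RNA scores ran from 10.45 to 11.17, and their translation efficiencies from -0.04 to 0.33 relative to the median gene. The transcripts of Hlf, Nfil3 and Rora differed by less, at 8.65 to 8.91, 10.11 to 10.12 and 10.46 to 10.63. Transcripts of a gene share coding sequence and therefore tags, so they are not separate measurements.

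The spread between livers of 1 genotype also separated the members. After centring, the SD within genotypes in total RNA was 0.117 for Rora, 0.163 for Tef, 0.189 for Nfil3, 0.354 for Hlf, 0.368 for Bhlhe40 and 0.706 for Dbp. Rora thus lay at the 16.8th percentile of all genes, and Dbp at the 99.0th. In footprints Dbp again had the widest spread (SD 0.746, above 96.2% of genes), and Tef the narrowest (0.143, above 13.5%). In Dbp the spread was that of the Maf1 KO livers more than of the wild-type livers (SD after centring 0.93 and 0.38 in total RNA), a difference that was not tested.

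Genes that DBP, TEF and HLF are known to activate gave 1 call. Of 16 listed PAR bZIP targets 13 were measured, and 1 passed in total RNA (0.276% of all genes did), Cyp4a10, a fatty acid omega-hydroxylase that PPARα also controls. Cyp4a10 scored 11.88, 12.16 and 10.72 in Maf1 KO livers 1, 2 and 4, against 12.52, 13.76 and 12.52 in wild-type livers 1, 2 and 3. Every Maf1 KO liver lay below every wild-type liver, with a difference of -1.34 (SE 0.25, limma adjusted p = 1.565e-04). With libraries centred the difference in Cyp4a10 was -1.36 (SE 0.38) and the call was lost (adjusted p = 0.405, limma). Cyp4a10 was lowest in Maf1 KO 4, the Maf1 KO liver in which Dbp was not low, and a relation of Cyp4a10 to Dbp was not tested. Cyp4a10 has close paralogs, among them Cyp4a14 (difference -0.89, adjusted p = 0.139, limma), and the sources used here do not say how tags shared between them were assigned. The list had a median difference of -0.34 after centring, beside a median of -0.017 over all genes. Of its 13 genes 10 lay below 0, as did 6187 of 11587 genes. The 10 include Cyp4a10, Cyp4a14, Acot1, Acot2, Acot3 and Acot4. Each of these was higher in wild-type 2 than in any other liver, so the 10 are not separate observations. In footprints none of the 13 passed, where 0.0863% of all genes did, and the centred median was -0.005, beside 0.007 over all genes.

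No gene of the core clock list passed in total RNA (0 of 13 measured of 15, limma), where 0.276% of all genes did. The listed pair with the smallest p values were Nr1d1 and Per1. Nr1d1, the REV-ERBα repressor, scored 6.95, 7.42 and 6.16 in Maf1 KO livers 1, 2 and 4, against 7.69, 8.07 and 7.24 in wild-type livers 1, 2 and 3 (difference -0.83, SE 0.30, limma adjusted p = 0.582). Per1, a repressor of CLOCK and BMAL1, scored 9.18, 8.90 and 8.32 in Maf1 KO livers, beside 8.19, 8.57 and 7.86 in the wild-type group (difference 0.59, SE 0.28, adjusted p = 1). For both the genotypes overlapped. Nr1d1 was lowest in Maf1 KO 4, in which Dbp was highest of the Maf1 KO livers. Per1 in Maf1 KO 4 lay within the wild-type range, as Dbp did. A relation of either gene to Dbp was not tested. With libraries centred, 5 of the 13 had an unadjusted p below 0.05 in total RNA, 2 with a higher mean in Maf1 KO and 3 with a lower one, where 8.48% of all genes did. The genotypes did not overlap in 2 of the 13, where they did not in 13.9% of all genes. The list's median difference after centring was -0.072.

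Other E-box outputs gave 0 calls among 4 measured genes, where 0.276% of all genes passed in total RNA. Ccrn4l, the deadenylase nocturnin, had a difference of 0.51 and Nampt, an enzyme of NAD synthesis, one of -0.45 (SE 0.27 and 0.25, adjusted p = 1 each, limma). With libraries centred, 3 of the 4 had an unadjusted limma p below 0.05 in total RNA, where 8.48% of all genes did. Of these 3, 1 had a higher mean in Maf1 KO and 2 a lower one. Among targets of ROR and REV-ERB receptors, 0 of 8 measured passed, beside the same 0.276% of all genes in total RNA. Nr1d1 again had the smallest p, followed by Elovl3, a fatty acid elongase, with a difference of 0.66 (SE 0.25, adjusted p = 0.597, limma). After centring, 4 of these 8 targets had an unadjusted limma p below 0.05 in total RNA, beside 8.48% of all genes. Of the 4, 2 had a higher mean in Maf1 KO and 2 a lower one, and Arntl and Nr1d1 among them are also in the core clock list. Among relatives of the members by family 1 of 7 passed in total RNA, where 0.276% of all genes did. This was the bZIP activator Cebpd, which scored 9.89, 9.09 and 8.48 in Maf1 KO livers 1, 2 and 4, against 8.38, 7.86 and 7.91 in wild-type livers 1, 2 and 3. All Maf1 KO livers lay above all wild-type livers, with a difference of 1.10 (SE 0.28, limma adjusted p = 0.0313). With libraries centred the difference in Cebpd was 1.08 (SE 0.24) and the call was lost (adjusted p = 0.267, limma). Cebpd was 1 of 2 relatives whose genotypes did not overlap after centring, where 13.9% of all genes did not. The other was Cebpb, which did not pass as deposited (difference 0.80, adjusted p = 0.222, limma). With libraries centred the difference in Cebpb was 0.78, with an unadjusted limma p of 5.03e-05, beside 0.00105 for Cebpd. The same 2 of 7 had a centred unadjusted limma p below 0.05, where 8.48% of all genes did. Kupffer cell markers were higher in the same livers, as given above, and their part in the Cebpd value was not tested. In footprints and in translation efficiency no gene of these 5 pathway lists passed (limma), where 0.0863% and 0.00863% of all genes did.

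**Figure D4:**
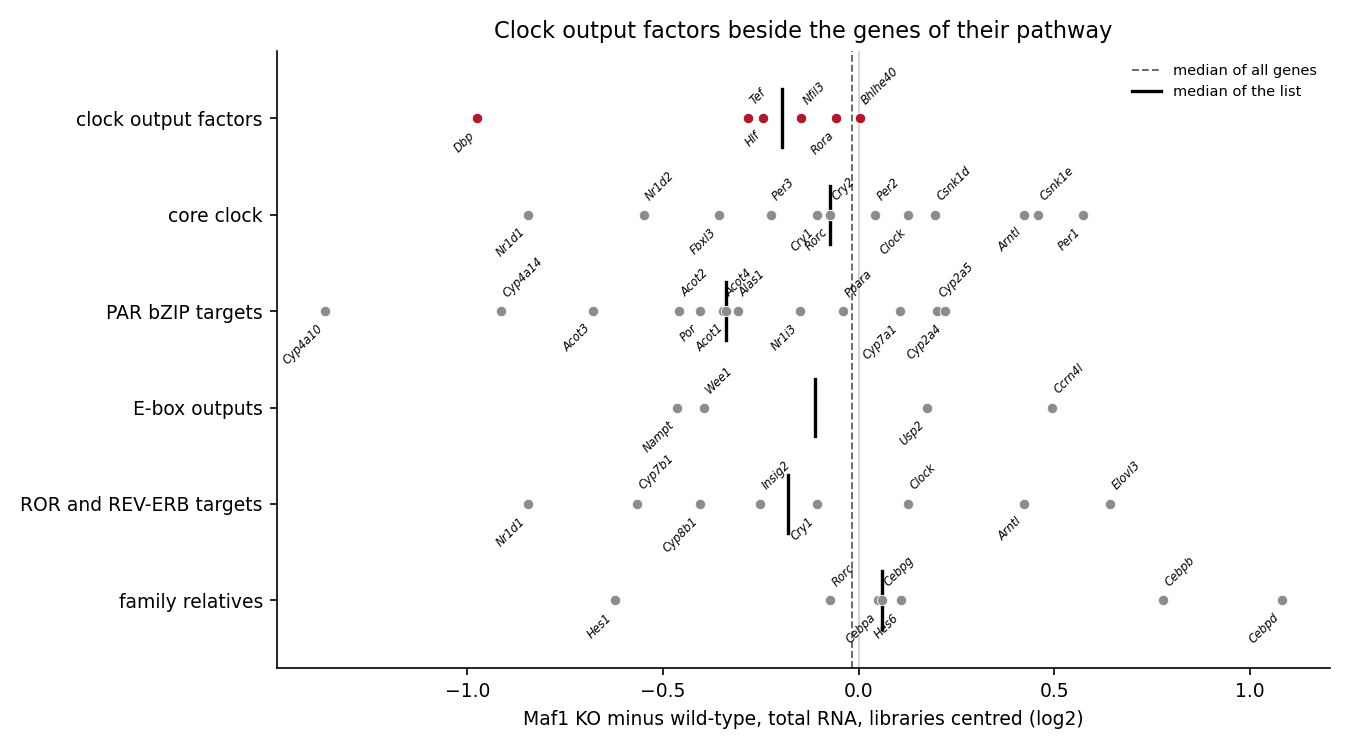
Total RNA difference between Maf1 KO and wild-type livers with libraries centred (log2, horizontal axis, Maf1 KO minus wild-type) of the clock output factors (red) and of the measured genes of 5 pathway lists (grey), one row a list. Short black lines are list medians and the dashed line is the median of all genes; Dbp lies at -0.97 while the 5 other factors lie between -0.28 and 0.002, and Cyp4a10 and Cebpd are the listed genes that passed as deposited and not after centring.

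For each member the most similar genes over the 6 livers were found in centred total RNA among the 5793 genes above the median level. These are Pearson correlations over 6 livers that share libraries between genes, picked as the highest over all genes compared, and are given as a description. Nearest to Dbp were Aamp, 2410003K15Rik and Zfp639 (r = 0.998, 0.995 and 0.994), whose own values moved far less than those of Dbp: Aamp, after centring, was 2.86, 2.80 and 3.03 in Maf1 KO livers 1, 2 and 4 and 2.99, 2.99 and 3.08 in wild-type livers 1, 2 and 3. Nearest to Tef were Hif1a, 0610037L13Rik and Dnajb6 (r = 0.998, 0.992 and 0.992), and nearest to Hlf were St3gal5, Ddx27 and Mrps14 (r = 0.991, 0.986 and 0.984). Nearest to Nfil3 were Cyp2d10, Ifnar2 and Dnajb9 (r = 0.983, 0.974 and 0.974), nearest to Rora were lig-2a, Dcaf6 and Apoh (r = 0.996, 0.995 and 0.98), and nearest to Bhlhe40 were 6330578E17Rik, Chchd4 and Rbfa (r = 0.967, 0.961 and 0.952). Dbp and Hlf lay below the median level, so neither could be a nearest gene of another member.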

How the data were processed

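Footprint and total RNA libraries were made from 3 Maf1 KO and 3 wild-type livers. Per the study's methods the authors removed tags common to the fly (dm6) and mouse (mm9) genomes, aligned the rest to coding sequences, removed rRNA tags, normalized with TMM from edgeR and corrected with the fly standard. The submitters' processing notes also name BDGP6. No aligner is named in the sources used here. The deposited values are log2 of normalized counts per transcript, and whether they include the fly correction or a division by length is not stated in the header. Depth is unknown, so no counting interval is given.

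Gene scores were the mean over transcripts (26260 transcripts, 11587 genes, 0 missing values), as in the study. Total RNA, footprints and translation efficiency were each tested in R 4.3.3 with limma 3.58.1 (lmFit, eBayes with a trend over abundance, genotype as the only term), with Benjamini-Hochberg adjustment over all genes at 0.05, and the code was tested on simulated data. Prior degrees of freedom were infinite on the deposited scale, so genes with a wide spread had a standard error that is too small. Orders of levels were tested with exact sign-flip permutation, coded for this purpose in Python 3.11.15. Groups and replicates came from the labels, which do not say whether mice shared litters or days. Members and lists were chosen with earlier results of these data known. The text names all members, every listed pathway gene past the threshold or, in a list without one, the 2 smallest p values in total RNA, and the 3 nearest genes of each member. Some further listed genes are named beside these to qualify a value or a count. Alternatives were library centring, quantile normalization, removal of low genes, highest transcripts, other priors, a threshold of 0.1, a replicate block and leaving out livers.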

Additional observations from a re-analysis of the deposited data

How the results depend on the processing

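With Maf1 KO 4 left out 1 member (Dbp) passed in total RNA, and with wild-type 3 left out 1 (Dbp) passed in footprints, against 0 in each with all livers. Over the 6 fits that each leave out 1 liver, the number of members called ran from 0 to 1 in total RNA, from 0 to 1 in footprints, and from 3 to 5 for translation efficiency against the median gene. In the same fits the total RNA difference ran from -1.41 to -0.51 for Dbp, -0.23 to 0.36 for Bhlhe40, -0.25 to 0.011 for Nfil3 and -0.21 to 0.056 for Rora, and the footprint difference from -1.68 to -0.76 for Dbp and -0.42 to 0.28 for Rora. The translation efficiency difference ran from -0.62 to 0.014 for Bhlhe40, -0.38 to 0.025 for Dbp, -0.54 to 0.033 for Hlf, -0.25 to 0.22 for Nfil3, -0.43 to 0.32 for Rora and -0.34 to 0.19 for Tef, and Nfil3 against the median gene from -0.26 to 0.029.

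Numbers 1 and 2 are shared by the genotypes but do not mark the same animals, and deviations of same-numbered livers correlated at 0.234 and 0.27 in total RNA and at -0.061 and 0.097 in footprints. With the replicate number as a block, Maf1 KO 4 and wild-type 3 drop out of the contrast, which leaves 4 livers. Under this block 1 member passed in footprints (Dbp, -1.74, limma adjusted p = 1.987e-07) among 292 genes called. The contrast lacks Maf1 KO 4, the Maf1 KO liver in which Dbp was not low. With 4 livers the footprint SE was near the same for all members, from 0.24 (Bhlhe40) to 0.28 (Dbp). It rests mainly on the spread shared by all genes, so this p-value says little of Dbp itself. Differences turned sign for Rora (0.035 in total RNA, 0.34 in footprints, 0.31 in translation efficiency) and Bhlhe40 (-0.33 in total RNA).

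Without Maf1 KO 1 and wild-type 3 together the sign turned for Bhlhe40 in total RNA (-0.47), Rora in footprints (0.45), and in translation efficiency for Tef (0.31), Hlf (0.23), Nfil3 (0.16), Rora (0.66) and Bhlhe40 (0.36), all uncalled. Centring, with or without robust empirical Bayes, turned Rora in footprints (0.040) and, in translation efficiency, Dbp (0.036), Tef (0.066), Nfil3 (0.14) and Rora (0.099). Quantile normalization gave 0.063 for Rora in footprints and 0.030, 0.067, 0.097 and 0.074 in translation efficiency for Dbp, Tef, Nfil3 and Rora. Without division by length 4 neighbour pairs in the order of levels passed, against 0 with it, a step in the adjustment that came from the pair Bhlhe40 and Tef alone. With the highest transcript Tef passed against the median gene (0.30, limma adjusted p = 0.0202).

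Genes called in total RNA numbered 32, and 2 with libraries centred, 2 after quantile normalization, 2 with robust empirical Bayes, 21 without low genes, 9 under the replicate block, 0 without Maf1 KO 1 and wild-type 3, and 1 to 30 without 1 liver. In footprints they numbered 10, and 0 after centring, quantile normalization or robust fitting, 4 without low genes, 20 with a common prior variance, 0 without both livers and 0 to 53 without 1. In translation efficiency they numbered 1, and 0 after centring, quantile normalization, robust fitting, removal of low genes or of both livers, 9 with a common prior variance, 3 under the block and 1 to 8 without 1 liver. Dbp lay at the 43.4th percentile of all genes in total RNA and at the 49.7th in footprints, and the removal of low genes kept it. Depth is unknown, so the part of counting in the spread of Dbp between 3 livers a genotype was not tested.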
